A study of Mus musculus with 6 samples.

Results

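The cytosolic ribosome is built from a large and a small subunit, each of them ribosomal RNA with many small basic proteins. The messenger RNAs of these proteins are among the most abundant in growing cells. Most of them begin with a run of pyrimidines, the terminal oligopyrimidine or TOP tract, through which the kinase mTOR and the RNA-binding protein Larp1 control their translation and stability together. In the epidermis, basal keratinocytes divide and synthesise protein actively, while granular cells near the surface are about to lose their organelles and RNA.

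The 76 genes described here were taken from the deposited table by name: Rpl or Rps with a number and an optional A, X or Y, together with Rplp0, Rplp1, Rplp2 and Rpsa. Retrogene and paralogue names and the S6 kinases were dropped, and TPM was summed over the 93 transcripts of these symbols, out of 20522 gene symbols in all. The large subunit had 46 members and the small subunit 30. The RNA came from ear skin of female C57BL6/N mice aged 8 weeks. In 3 libraries it was prepared from ETA sheets, the upper layers released by exfoliative toxin A which by the study's design text hold the granular cells SG1 and SG2. In the other 3 it was prepared from epidermal sheets, the whole epidermis released by dispase. TPM (transcripts per 1000000) is a length-scaled share of a library, so levels can be compared between genes, but depth is unknown.

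Of the 6 column headers in the deposited file, 4 differ from the sample titles, and 2 of them name the other group; the titles were followed. The labelled layers were checked against their markers. ETA sheet replicate 1 and epidermal sheet replicate 3 carry headers of the other group. Their granular marker sums were 135592 and 6975 TPM and their basal sums 271 and 18065 TPM. By these markers both libraries go with their titles. The 8 granular keratinocyte markers summed to between 135592 and 159165 TPM in ETA sheets and between 6975 and 9452 TPM in epidermal sheets, and the 7 basal markers to between 146 and 279 TPM in ETA sheets and between 16944 and 19278 TPM in epidermal sheets. Langerhans cell markers summed to between 304 and 462 TPM in ETA sheets and between 955 and 1133 TPM in epidermal sheets; in ETA sheets most of this was Epcam, while Cd207, the defining marker, was at 0.535, 2.43 and 1.48 TPM. The melanocyte sums were 0.815 to 1.66 TPM in ETA sheets and 37.2 to 40.6 TPM in epidermal sheets, the 4 T cell markers found summed to between 0 and 5.55 TPM in ETA sheets and between 59.1 and 63.9 TPM in epidermal sheets, and the sebaceous gland sums were 121 to 340.0 TPM in ETA sheets and 1566 to 2409 TPM in epidermal sheets. Hair follicle sums were 3.91 to 7.12 TPM in ETA sheets and 16.8 to 123 TPM in epidermal sheets. Dermal fibroblast sums were 56.0 to 66.6 TPM in ETA sheets and 7.27 to 10.8 TPM in epidermal sheets. Hba-a1, a haemoglobin chain of red cells, had 3569.6, 1704 and 8632 TPM in ETA sheets and 100.2, 147 and 126 TPM in epidermal sheets. Cartilage sums were 2.49 to 39.5 TPM in ETA sheets and 0.309 to 1.75 TPM in epidermal sheets, skeletal muscle sums 4.67 to 11.8 TPM in ETA sheets and 0 to 2.30 TPM in epidermal sheets, and endothelium sums 0.737 to 4.41 TPM in ETA sheets and 0.517 to 1.70 TPM in epidermal sheets. Their part in the ribosomal protein levels was not tested, and the layer sampled cannot be told apart from the solution used to release it. In bulk RNA, fewer cells of a type and less RNA per cell cannot be told apart.

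The sequence around the annotated starts shows a feature that most of these genes share. RefSeq start windows were found for 56 of the 76 members. Within 50 bases either side of the annotated start, 48 of the 56 (85.7%) held a run of at least 8 pyrimidines on the sense strand, against 39.3% of all 27025 genes with a window and 36.7% of the 9147 other tested genes. A run anywhere in this stretch was counted, so the count does not show a TOP tract at the first base of the transcript. The following windows of 30 bases are shown because their genes lie at both ends of the range of change described further on, with Rps6 as the S6 kinase substrate and Rps28 as a member whose longest run was 5 bases. They are written 5′ to 3′ with the longest run in capitals.
Rpl36a: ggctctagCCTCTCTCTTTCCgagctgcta
Rpl22: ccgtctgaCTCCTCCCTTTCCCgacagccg
Rpl34: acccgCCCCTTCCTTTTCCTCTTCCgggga
Rps18: tcacttccgCTCTCTCTTCCacaggaggcc
Rps6: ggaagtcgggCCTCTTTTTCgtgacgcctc
Rpl18: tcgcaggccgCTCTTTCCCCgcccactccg
Rpl13: cgtgacgtcaCTTCCCTTTCgcctgatttt
Rps16: aattcacacgTCCCCTCTCaggcttcgacg
Rps28: ctgtcccgaggaTTCCTgggtaccgcgtgc
On GRCm38.p6 the Rpl36a window lies at chrX:134585673-134585702 on the plus strand, that of Rps18 at chr17:33955647-33955676 on the minus strand, that of Rps6 at chr4:86857349-86857378 on the minus strand and that of Rpl13 at chr8:123102324-123102353 on the plus strand. The windows of Rpl22 at chr4:152325679-152325708, Rpl18 at chr7:45718062-45718091 and Rps16 at chr7:28350632-28350661 are on the plus strand, and those of Rpl34 at chr3:130730330-130730359 and Rps28 at chr17:33824566-33824595 on the minus strand. The run began at the base just before the annotated start in Rps6, 2 bases before it in Rps18 and 16 bases before it in Rpl13, but at base 28 of the transcript in Rpl36a. In Rpl22 and Rps16 it began 39 and 47 bases before the start. In these genes and in Rpl13 and Rps28 the run ended before the start, outside the annotated transcript. Not every gene at the ends of the range is shown. Among others with large falls, the longest runs were 9 bases in Rps27, 10 in Rps15a and 14 in Rpl39. They were 7 in Rpsa, 20 in Rpl27a and 6 in Rps13. Among others with small falls, they were 10 in Rpl41 and Rps2 and 13 in Rps19. The pentamer CTTTC, on the sense strand in the same windows, was found in 31 members (55.4%), in 14.6% of all genes and in 12.1% of other tested genes. CTTCC was found in 26 members (46.4%), 22.2% of all genes and 26.1% of other tested genes. Over the longer window of 250 bases before to 50 after the start and on both strands, CCGGAAG, the core bound by ETS factors such as GABPA, was found in 23 members (41.1%), 9.93% of all genes and 20.02% of other tested genes. ATGGCG, the core of the YY1 motif, was found in 16 members (28.6%), 10.2% of all genes and 17.4% of other tested genes. GGGCGG, the SP1 core, was found in 34 members (60.7%), 38.2% of all genes and 68.5% of other tested genes, and TATAAA in 6 members (10.7%), 15.7% of all genes and 9.54% of other tested genes. Members with and without the pyrimidine run had median log2 fold changes (ETA minus epidermal sheet) of -2.12 and -2.07. The medians for the other tested genes with and without it were -1.32 and -1.36.

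Ribosomal protein transcripts made up 7.71%, 4.90% and 5.08% of all TPM in ETA sheet replicates 1, 2 and 3, and 25.9%, 22.6% and 23.4% in epidermal sheet replicates 1, 2 and 3. The means were 5.90 ± 1.58% (SD, n = 3) in ETA sheets and 23.9 ± 1.71% (SD, n = 3) in epidermal sheets, a ratio of 0.246. The ratio was 0.208 without ETA sheet replicate 1, the highest library of its group. Among the 100 genes with the highest mean TPM, 17 were members in ETA sheets and 63 in epidermal sheets. As a description, the median member had 724 TPM in ETA sheets and 3083 TPM in epidermal sheets.

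**Figure D1:**
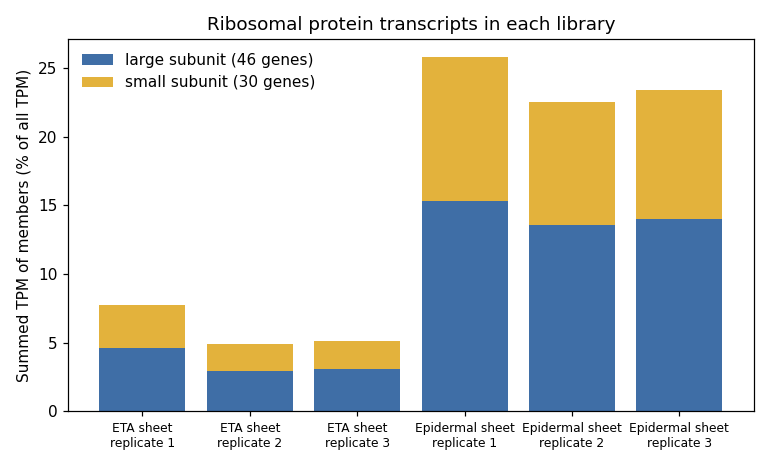
Summed TPM of the 46 large subunit and 30 small subunit genes as a percentage of all TPM, one bar per library, ETA sheets left and epidermal sheets right. The 3 ETA sheet bars reach 4.90% to 7.71% and the 3 epidermal sheet bars 22.6% to 25.9%, with about the same division between the subunits in every bar.

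All 76 members were tested with limma on log2(TPM + 1), and all 76 fell in ETA sheets, with an adjusted p (Benjamini-Hochberg) under 0.05 as the threshold. The background is high, since 63.6% of the 11683 genes tested were called lower and 10.1% higher (73.7% in all). The adjusted p of the members ranged from 2.33e-05 to 0.000673. Every ETA sheet library lay below every epidermal sheet library for each of the 76, a pattern found in 66.0% of all tested genes. The median log2 fold change was -2.10 for the members and -1.34 for all tested genes. The spread was narrow: the interquartile range of the log2 fold change was 0.32 among members and 1.69 among all tested genes.

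Expressed as the epidermal sheet mean over the ETA sheet mean, the members were 2.58-fold to 10.02-fold lower in ETA sheets, with a median of 4.17-fold and with 67 of them between 3-fold and 6-fold. After median-of-ratios scaling, which centres the genes above 0 in every library and averaging at least 10 TPM, 67 members were still called lower, 9 were not called and 0 were called higher, where 29.3% of all genes tested were lower and 52.3% were called in either direction. With that scaling the median log2 fold change was -0.79 for the members and -0.24 for all genes tested. The 9 that lost their call were Rps28, Rpl37a, Rps19, Rps2, Rpl41, Rpl18, Rpl13, Rps16 and Rpl29, at log2 -0.47 to -0.09. Rescaled without the 100 most abundant genes of the table, all 76 members were called lower, where 64.9% of genes were called in either direction and 50.7% lower. Those 100 genes were left out of the library total only and stayed in the test. Members were among them, so that total left out part of the family itself. With groups taken from the sheet names in the column headers, which put 2 libraries in the other group, limma called 0 members and 0 genes, with 0 members and 87 genes at an unadjusted p under 0.05; all 76 log2 fold changes were still negative, with a median of -0.99.

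**Figure D2:**
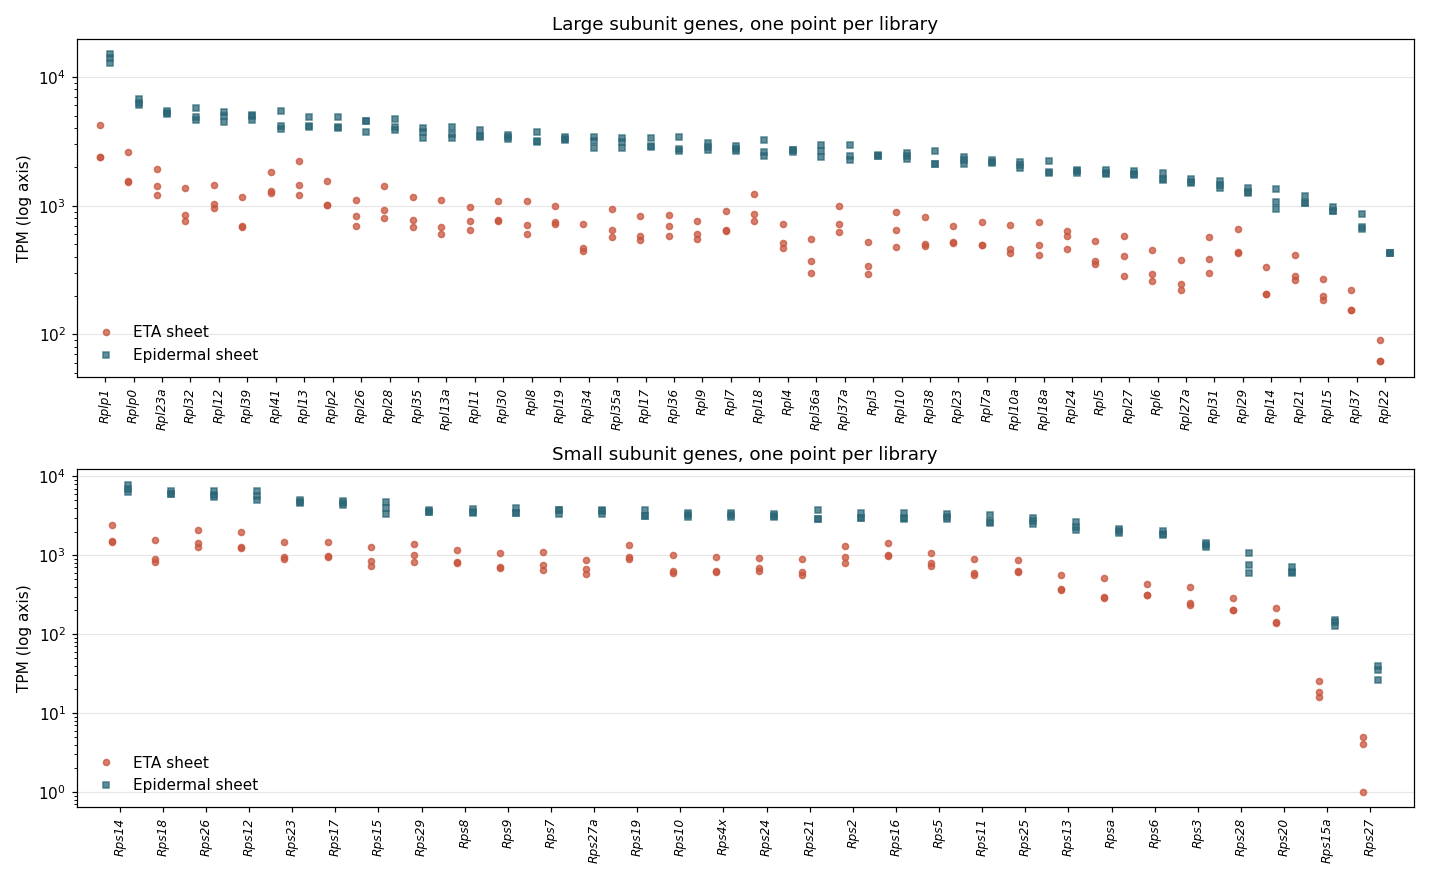
TPM of each ribosomal protein gene on a log axis, large subunit above and small subunit below, ordered by the epidermal sheet mean; circles are the 3 ETA sheet libraries and squares the 3 epidermal sheet libraries. The circles lie below the squares for all 76 genes, and the order of the genes is much alike in both groups.

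The proteins of the P stalk, the flexible arm of the large subunit that recruits elongation factors, included the most abundant transcripts. Rplp1 had 4263, 2386 and 2392 TPM in ETA sheets and 14988, 12891 and 14016 TPM in epidermal sheets, and ranked first of the 76 in both groups (4.63-fold lower; log2 fold change -2.27 ± 0.24 SE, limma adjusted p = 9.70e-05). Rplp0, the core of the stalk, had 2603, 1547 and 1527 TPM in ETA sheets and 6791, 6310.2 and 6036 TPM in epidermal sheets. Rplp2, the partner of Rplp1, had 1566, 1016 and 1005 TPM in ETA sheets and 4902, 4055 and 4011 TPM in epidermal sheets. The groups did not overlap for any of these, as for all 76 members and for 66.0% of all tested genes in this direction. In each of these genes ETA sheet replicate 1 stood highest of its group. Rpl12, at the base of the stalk, was 4.29-fold lower at 1146 ± 273 TPM in ETA sheets and 4917 ± 407 TPM in epidermal sheets (each ± SD, n = 3).

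Rpl5 and Rpl11 form a particle with the 5S ribosomal RNA and, when not assembled, bind the p53 regulator Mdm2. Rpl5 had 531, 374 and 352 TPM in ETA sheets and 1759, 1799 and 1889 TPM in epidermal sheets. Rpl11 had 980.2, 647 and 760.3 TPM in ETA sheets and 3849, 3425 and 3499.8 TPM in epidermal sheets. The falls of both lay close to the median member, at log2 -2.14 ± 0.19 and -2.19 ± 0.19 (SE; limma adjusted p = 4.60e-05 and 3.86e-05).

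Rpl3, which reaches the peptidyl transferase centre, had one of the largest falls in the large subunit, with 520.2, 297 and 339 TPM in ETA sheets and 2421, 2433 and 2473 TPM in epidermal sheets (6.34-fold lower; log2 -2.70 ± 0.22 SE, limma adjusted p = 3.24e-05). Among proteins that line the exit tunnel, Rpl39 was 5.75-fold lower at 851 ± 281 TPM in ETA sheets and 4898 ± 209.9 TPM in epidermal sheets. Rpl4 was 4.69-fold lower at 571 ± 134 TPM in ETA sheets and 2674 ± 35.6 TPM in epidermal sheets, and Rpl17 4.70-fold lower. Rpl10, which joins the subunit late in its assembly, was 3.62-fold lower. Rpl41, a very short peptide that bridges the subunits, had 1809.8, 1307 and 1259 TPM in ETA sheets and 5473, 4169 and 3951 TPM in epidermal sheets (3.11-fold lower).

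The remaining abundant genes of the large subunit differed in their falls. Rpl23a had 1938, 1199 and 1417 TPM in ETA sheets and 5393, 5140.1 and 5197 TPM in epidermal sheets (3.45-fold lower), and Rpl32 had 1361, 854 and 754 TPM in ETA sheets and 5720.3, 4891 and 4619 TPM in epidermal sheets (5.13-fold lower). By level, Rpl13 was number 4 of the members in ETA sheets and number 14 in epidermal sheets. Its levels were 2221, 1211 and 1458 TPM in ETA sheets and 4842, 4115 and 4129.5 TPM in epidermal sheets (2.68-fold lower). Rpl29 had the smallest fall of the family, with 653, 429 and 433 TPM in ETA sheets and 1373, 1264 and 1273 TPM in epidermal sheets (2.58-fold lower; log2 -1.39 ± 0.20 SE, limma adjusted p = 0.000382). Rpl13a, which in human cells also acts in translational control outside the ribosome, was 4.58-fold lower.

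In the small subunit Rps14, a protein of the platform near the decoding site, was the most abundant by the naming rule; the retrogene Rps27rt, which the rule leaves out and which is described further on, had a higher mean in both groups. Rps14 had 2424, 1511 and 1469 TPM in ETA sheets and 7871, 6318 and 6881 TPM in epidermal sheets (3.90-fold lower, limma adjusted p = 0.000119). Rps18 had 1539.8, 815 and 889.9 TPM in ETA sheets and 6481, 5986 and 5974 TPM in epidermal sheets, which made it number 15 of the 76 in ETA sheets and number 4 in epidermal sheets (5.68-fold lower). Rps12 and Rps23, a protein of the decoding site, were 3.80-fold and 4.33-fold lower.

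Among the proteins along the path of the mRNA, Rps2 and Rps3 at its entry were 3.06-fold and 4.60-fold lower. Rps26, near its exit, had 2078, 1256 and 1438 TPM in ETA sheets and 6533, 5459 and 5838 TPM in epidermal sheets (3.74-fold lower), and Rps28, also there, was 3.49-fold lower. Rps6, the classical substrate of the S6 kinases, had 439, 314 and 313 TPM in ETA sheets and 2036, 1798 and 1849 TPM in epidermal sheets (5.33-fold lower; log2 -2.43 ± 0.18 SE, limma adjusted p = 2.44e-05). Rps27a, which is made as a fusion with ubiquitin, was 5.08-fold lower, and Rpsa, also known as the laminin receptor precursor, was 5.54-fold lower at 365 ± 129 TPM in ETA sheets and 2021 ± 128 TPM in epidermal sheets. Rps4x, encoded on the X chromosome, was 4.42-fold lower.

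Some members are known for skin, coat or hair phenotypes when mutated. Missense mutations of Rps19 and Rps20 darken the skin of mice. Rps19 had 1366, 945 and 892 TPM in ETA sheets and 3739.8, 3171 and 3168 TPM in epidermal sheets (3.15-fold lower). Rps20 had 214, 142 and 139 TPM in ETA sheets and 702, 613 and 591 TPM in epidermal sheets (3.85-fold lower). Rpl24 and Rpl38, mutated in the belly spot and tail and the tail short mouse, were 3.30-fold and 3.81-fold lower. Rpl21, whose human homologue is mutated in a hereditary hair loss, was 3.43-fold lower at 321 ± 79.9 TPM in ETA sheets and 1101 ± 83.4 TPM in epidermal sheets. The groups did not overlap for any of these 5, as for all 76 members and for 66.0% of all tested genes in this direction.

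**Figure D3:**
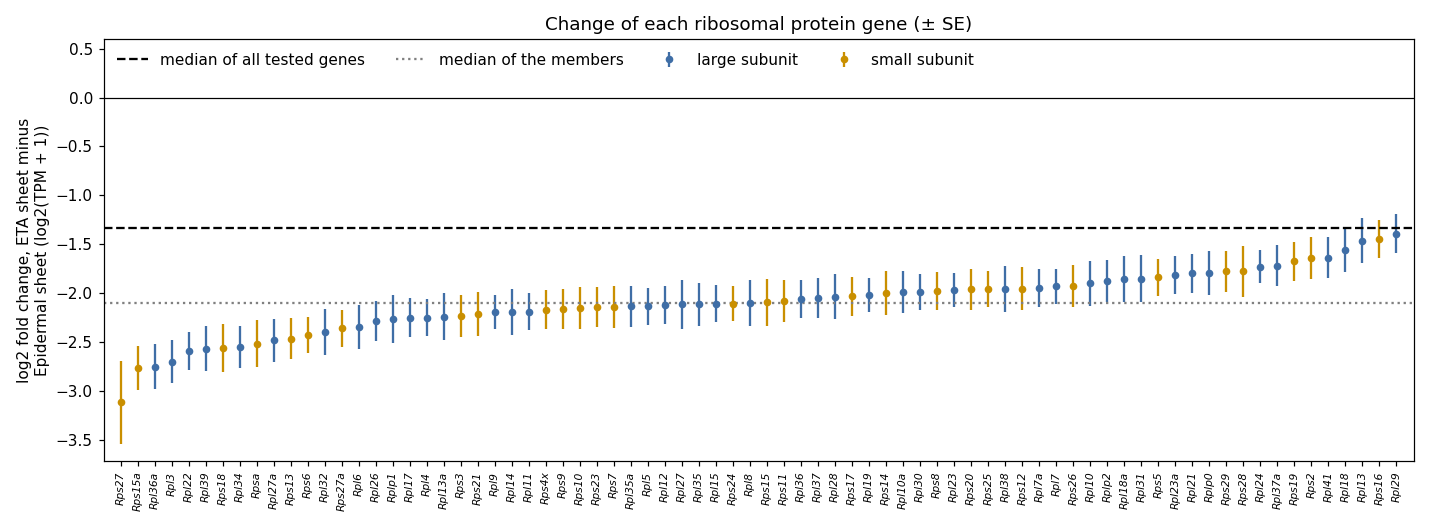
Log2 fold change of each member (ETA sheet minus epidermal sheet, on log2(TPM + 1)) with its SE, ordered by size and coloured by subunit; the dashed line marks the median of all tested genes (-1.34) and the dotted line that of the members (-2.10). Both subunits are spread along the whole order, and every member lies below the dashed line, with Rpl29 nearest to it.

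The subunits were then set against each other. The ratio of summed TPM of the large to the small subunit was 1.49, 1.45 and 1.49 in ETA sheets and 1.46, 1.505 and 1.49 in epidermal sheets, so that the groups overlapped. The means were 1.48 ± 0.02 in ETA sheets and 1.49 ± 0.02 in epidermal sheets (each ± SD, n = 3), a difference of -0.00881. The median log2 fold change was -2.08 in the large and -2.10 in the small subunit, with ranges of -2.75 to -1.39 and -3.12 to -1.45. The order of the members by level was similar in both groups, with a Spearman correlation of 0.931 and a Pearson correlation of log2 means of 0.975 over the 76 genes; the genes share the libraries and their annotation, so this is a description.

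Members also moved together within a group. Of the 76, 75 were highest in replicate 1 among the ETA sheets, with Rps27 as the exception. Among the epidermal sheets 61 were highest in replicate 1. Neither these counts nor the coefficients that follow are given for other genes, so they do not set the members apart. The median coefficient of variation of a member was 26.4% in ETA sheets and 7.86% in epidermal sheets. Once each library was scaled to the same ribosomal protein total, it was 5.88% in ETA sheets and 5.02% in epidermal sheets. In ETA sheets 1, 2 and 3 the basal marker sums were 271, 279 and 146 TPM, the granular sums 135592, 159165 and 153413 TPM and the T cell sums 5.55, 0 and 2.83 TPM. S100a8, a neutrophil and stressed-keratinocyte gene in the blood list, had 296.5, 8.82 and 5.20 TPM there, and Trp63, a basal transcription factor, 20.4, 9.08 and 8.03 TPM. Replicate 1 was thus the lowest ETA sheet for the granular sum and the highest for the T cell sum, which was low in all of them, and for S100a8. The Langerhans cell sum was also highest in replicate 1, but Cd207 was lowest there. The sebaceous gland, hair follicle, melanocyte, dermal fibroblast, cartilage and skeletal muscle sums were highest in replicate 2. The endothelium sum was highest in replicate 3. Hba-a1 and Alas2, of the same blood list as S100a8, were highest in replicate 3. Among the basal markers Trp63, Krt15, Itga6, Itgb4 and Col17a1 were highest in replicate 1. Krt5 and Krt14 were highest in replicate 2, as was the basal sum. The part of these differences in the ribosomal protein level of replicate 1 was not tested. ETA sheet replicate 2, in which 1527 tested genes were listed at 0 against 336 to 518 in the other libraries, listed 0 of the 76 members at 0.

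To ask which members changed differently from the family, limma was run on the whole table after the members' summed TPM had been made equal in every library. Of the 76, 12 were then called lower and 7 higher in ETA sheets, and 57 were not called; in the same fit 11.5% of 12169 genes were called lower and 33.0% higher, 44.6% in all. The 12 divided into 6 large and 6 small subunit genes, and the 7 into 4 and 3. Below the family were Rps27, Rps15a, Rpl36a, Rpl3, Rpl22, Rpl39, Rps18, Rpl34, Rpsa, Rpl27a, Rps13 and Rps6. Above it were Rpl29, Rps16, Rpl13, Rpl18, Rpl41, Rps2 and Rps19. These differences lay between -1.39 and 0.66 on the log2 scale.

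With 1 library left out, 5 genes kept their relative call every time: Rps15a, Rpl36a and Rpl3 below the family, and Rps16 and Rpl29 above it. Most of these 5 share sequence with other genes, as given further on, and how reads were divided between copies was not tested. Without epidermal sheet replicate 1, 5 members were called lower and 4 higher; without replicate 2, 3 and 3; without replicate 3, 3 and 2. The no-trend fit called 3 and 1. Rpl36a had 546, 300.1 and 371 TPM in ETA sheets and 2967, 2397 and 2642 TPM in epidermal sheets, and lay below the family by log2 -0.71 ± 0.14 (SE, limma adjusted p = 0.00380). Rps16, whose tail touches the tRNA, had 1440.0, 1010.2 and 986 TPM in ETA sheets and 3464, 2847 and 2967 TPM in epidermal sheets, and lay above it by log2 0.60 ± 0.13 (SE, limma adjusted p = 0.00544). By level it was number 11 of the members in ETA sheets and number 38 in epidermal sheets. Rpl3 lay below the family by log2 -0.66 ± 0.14 and Rpl29 above it by log2 0.66 ± 0.13 (SE; limma adjusted p = 0.00532 and 0.00371). Rpl22, which has the paralogue Rpl22l1, lay below it by log2 -0.56 ± 0.15 (limma adjusted p = 0.0175) at 71.4 ± 16.2 TPM in ETA sheets and 430.1 ± 3.16 TPM in epidermal sheets. Rpl22l1 was also lower, at means of 53.6 TPM in ETA sheets and 252 TPM in epidermal sheets. Relative to the family it was not called (log2 -0.15, limma adjusted p = 0.745). A further Rpl22l1 row without a symbol had means of 178 TPM in ETA sheets and 688 TPM in epidermal sheets.

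**Figure D4:**
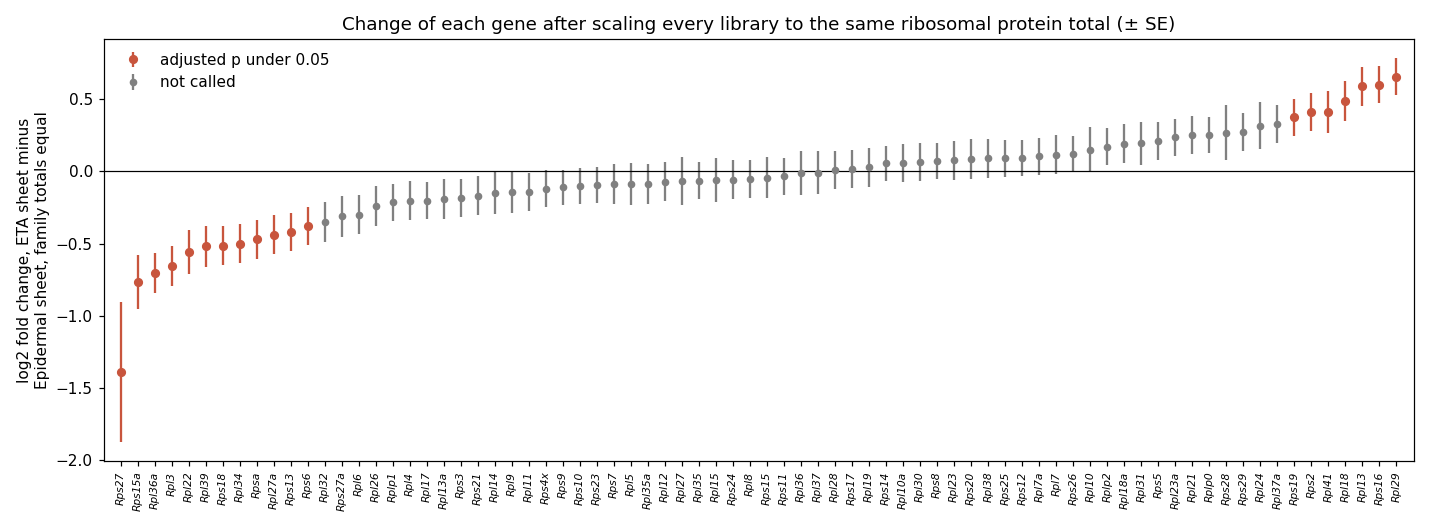
Log2 fold change of each member with its SE after every library was scaled to the same ribosomal protein total; coloured points passed an adjusted p under 0.05 and grey points did not. Of the 76 genes 57 are grey and fill the middle of the order, while Rps27, Rps15a, Rpl36a and Rpl3 stand at the low end and Rpl29, Rps16 and Rpl13 at the high end.

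Ribosomal protein genes have many retrocopies, and how the 25 bp reads were divided between near-identical copies was not tested. Of the 25-base words in a reference transcript of each member, 20% or more also occurred in a transcript of another gene of the deposited table for 16 members, and 0 did for 41. Copies absent from that table and further rows of the same gene were not counted. The lowest-listed members, Rps27 and Rps15a, share many words with copies. Rps27 was listed at 4.11, 4.98 and 1.01 TPM in ETA sheets and 39.9, 34.7 and 26.5 TPM in epidermal sheets, although it encodes a core protein of the small subunit. Its retrogene Rps27rt was listed at 2657, 1595 and 1464 TPM in ETA sheets and 9584, 8474 and 9183 TPM in epidermal sheets. The coding sequences of both are 255 bases long with 0 differences, and 98.8% of the 25-base words of Rps27 occur in Rps27rt. The first 60 coding bases, shown since no read within them can tell the copies apart, are the same in the gene on chromosome 3 and the copy on chromosome 9.
Rps27 and Rps27rt: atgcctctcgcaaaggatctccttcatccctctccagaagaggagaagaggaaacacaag
Summed, the pair had 1909 ± 655 TPM in ETA sheets and 9114 ± 564 TPM in epidermal sheets (each ± SD, n = 3), 4.78-fold lower in ETA sheets, where Rps27 alone was 10.02-fold lower.

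Rps15a had 25.9, 18.5 and 15.9 TPM in ETA sheets and 143, 151 and 127 TPM in epidermal sheets, and 51.0% of its words occurred in other genes. With the copies Rps15a-ps4 and Rps15a-ps6, which stood in rows without a symbol, it summed to 127 ± 41.1 TPM in ETA sheets and 887 ± 85.1 TPM in epidermal sheets and was still 7.001-fold lower. Rps28 had a further row without a symbol; with it the gene summed to 888 ± 134 TPM in ETA sheets and 3225 ± 319.8 TPM in epidermal sheets (3.63-fold lower). Rpl36a together with the paralogue Rpl36al was 4.08-fold lower, where Rpl36a alone was 6.58-fold lower, and Rpl36al alone was 2.25-fold lower. Of the words of Rpl36a, 24.6% occurred in other genes, all of them in Gm6525. Rpl31 with the copy Rpl31-ps12 was 2.66-fold lower, where Rpl31 alone was 3.50-fold lower. Rpl14 with the copy Rpl14-ps1 was 4.43-fold lower, where Rpl14 alone was 4.52-fold lower. Of the 19 members that differed from the family, Rpl3, Rps18, Rpl27a, Rps6 and Rpl18 shared 0 words with other genes of the deposited table. Copies outside it were not searched. Among the genes that kept their relative call with each library left out, Rpl29 shared 42.6% of its words and Rps16 8.39%. The shares of Rps15a and Rpl36a are given above.

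A few proteins of the ribosome carry names outside the rule, and they were looked at after their values had been seen. Rps3a1, a small subunit protein, was 4.76-fold lower with 1379.6, 914 and 827 TPM in ETA sheets and 5369.6, 4568 and 4905 TPM in epidermal sheets, close to the family (relative log2 -0.23, limma adjusted p = 0.176). Rack1, a signalling scaffold on the small subunit, was 4.91-fold lower. Fau, which encodes a small subunit protein fused to a ubiquitin-like domain, was 2.84-fold lower and lay above the family by log2 0.53 ± 0.13 (SE, limma adjusted p = 0.0104). Rps27a, a member of the family made as a ubiquitin fusion, lay below the family by a difference that was not called (relative log2 -0.31, limma adjusted p = 0.104). With Rps3a1, Rack1, Fau, the copies and the unnamed rows added, the family held 8.65%, 5.57% and 5.70% of TPM in ETA sheets and 28.9%, 25.3% and 26.2% in epidermal sheets. The ratio of large to small subunit was then 1.26, 1.24 and 1.28 in ETA sheets and 1.22, 1.25 and 1.23 in epidermal sheets, and the groups overlapped.

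Genes that make and regulate ribosomes were counted from lists. Of 77 tested ribosome biogenesis and assembly genes 74 fell and 0 rose, with a median log2 fold change of -2.15. After median-of-ratios scaling 54 were lower and 3 higher. Over all genes tested, the background for this list and the TOP-type list below, 63.6% were lower and 10.1% higher (median -1.34). After median-of-ratios scaling 3395 of 11570 genes were lower and 2659 higher. Npm1, a nucleolar chaperone, had 76.8, 60.7 and 57.3 TPM in ETA sheets and 702, 641 and 654 TPM in epidermal sheets (log2 -3.35 ± 0.18 SE, limma adjusted p = 7.40e-06). Dkc1, the pseudouridine synthase of ribosomal RNA, had 2.30 ± 1.62 TPM in ETA sheets and 32.2 ± 2.58 TPM in epidermal sheets, and Nop56, a protein of the methylation guide particles, fell by log2 -3.45, a call that median-of-ratios scaling ended at log2 -2.49 (limma adjusted p = 0.0559). Of 23 other genes listed for TOP-type mRNAs 21 fell and 1 rose (median -1.91), and after median-of-ratios scaling 14 were lower and 3 higher. Eef1a1, the elongation factor that delivers tRNA, had 2472, 1486 and 1281 TPM in ETA sheets and 9991, 10767 and 10050.3 TPM in epidermal sheets. Hnrnpa1, an RNA-binding protein, Nap1l1, a histone chaperone, and Eef1e1, a cofactor of the tRNA synthetase complex, fell by log2 -3.29, -3.14 and -2.85. The exception was Pabpc1, the cytoplasmic poly(A)-binding protein, with 592, 761 and 721 TPM in ETA sheets and 403, 413 and 391 TPM in epidermal sheets (log2 0.77 ± 0.16 SE, limma adjusted p = 0.00276).

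A list for mTOR signalling and TOP mRNA control held 28 genes, with Myc and its partners among them. Being on it does not show that a gene acts on TOP mRNAs. Of the 28, 17 fell and 3 rose (median -0.99), shares near those over all genes tested (63.6% lower and 10.1% higher). After median-of-ratios scaling 5 were lower and 7 higher, where 29.3% of all genes were lower. Myc, an activator of ribosome synthesis, had 43.1, 32.1 and 33.6 TPM in ETA sheets and 193, 177 and 198 TPM in epidermal sheets (log2 -2.36 ± 0.19 SE, limma adjusted p = 2.83e-05). Its antagonist Mxd1 had 197, 193 and 201 TPM in ETA sheets and 20.1, 22.6 and 17.7 TPM in epidermal sheets (log2 3.23 ± 0.18 SE, limma adjusted p = 8.25e-06), and their common partner Max rose by log2 1.55. The S6 kinase gene Rps6kb2 rose by log2 0.60, while the related kinase gene Rps6ka1 and the RNA-binding protein gene Larp7 fell by log2 -4.10 and -2.54. Cnbp, a binder of TOP mRNAs, fell by log2 -1.21 as deposited and had log2 0.10 after median-of-ratios scaling, which was not called.

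Of 22 tested genes of ribosome quality control and turnover 16 fell and 2 rose (median -1.19), again near the 63.6% lower and 10.1% higher over all genes tested. After median-of-ratios scaling 4 were lower and 8 higher, where 3395 of 11570 genes were lower and 2659 higher. Zfp598, the ubiquitin ligase that senses collided ribosomes, had 78.3, 62.0 and 78.2 TPM in ETA sheets and 19.2, 21.9 and 48.1 TPM in epidermal sheets (log2 1.37 ± 0.34 SE, limma adjusted p = 0.00588), and Ascc2, of the complex that splits such ribosomes, rose by log2 1.19. G3bp1, a stress granule protein, Abce1, which recycles ribosomes, and Rnf14, a ubiquitin ligase, fell by log2 -3.30, -2.56 and -2.13. Edf1, a factor on collided ribosomes, fell by log2 -1.06 as deposited and had log2 0.24 after median-of-ratios scaling, which was not called. For comparison, 73 of 77 tested mitochondrial ribosomal protein genes fell and 1 rose (median -2.12), and 51 of 63 translation initiation and elongation factor genes fell and 5 rose (median -1.47). After median-of-ratios scaling 41 mitochondrial ribosomal protein genes were lower and 3 higher (median -0.92), and 19 translation factor genes were lower and 9 higher (median -0.18).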

How the data were processed

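Whole epidermis and toxin-released upper layers of mouse ear were profiled by RNA sequencing with paired reads of 25 bp, per the labels. The authors deposited TPM for 37903 RefSeq transcripts; the submitters' processing notes name Salmon, Bowtie2 and mm9, without versions or roles. TPM keeps no depth, so no counting interval is given. Columns were given to samples by library number and groups taken from the titles. In 4 of 6 headers the sheet name or number differs from the title. The keratinocyte markers of the 2 libraries with a header of the other group went with the titles. The header grouping is given only as an alternative. Whether the sheets of a group were from different animals is not stated in the labels, and p-values therefore reflect only how much these samples varied.

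TPM was summed per symbol; transcripts without a symbol (3.57% to 6.65% of TPM) stayed out of the tests. The main test used limma 3.58.1 (R 4.3.3) on log2(TPM + 1), ETA minus epidermal sheet, for genes averaging 1 TPM or more, with a variance trend and Benjamini-Hochberg adjustment over all genes. On that scale, fold changes of low genes come out too small. The members and lists were chosen with earlier results of these data known, and no test over a list was made. Named members are the 5 most abundant per subunit, the 4 at each end of the fold change, members with a listed role and those called relative to the family (up to 5 per direction by size); from each pathway list, the most abundant gene and up to 3 called per direction with at least 10 TPM. Alternatives were other pseudocounts, filters, scalings, groupings and transcript sums, a replicate block, no variance trend and leaving out each library. Start windows were taken from RefSeq (GRCm38.p6) and 25-base words from GENCODE transcripts by symbol; no position was converted from mm9. Not every gene outside the naming rule is reported here.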

Additional observations from a re-analysis of the deposited data

How the results depend on the processing

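All 76 members kept their call as lower in ETA sheets under every alternative tried except median-of-ratios scaling (67 called) and groups taken from the column headers (0 called); under both, all 76 log2 fold changes stayed negative, at -0.09 and -0.68 or below. The header groups also left 0 genes lower, 0 higher, 0 calls in each list and 0 members called relative to the family, with a share ratio of 0.595. Over the table, median-of-ratios scaling called 3395 genes lower and 2659 higher. In the lists it gave 3 higher for ribosome biogenesis, 3 higher for TOP-type mRNAs, 5 lower and 7 higher for mTOR and TOP control, and 4 lower and 8 higher for quality control. Cnbp and Edf1 turned to log2 0.10 and 0.24 there. Without the 100 most abundant genes the share ratio was 0.355, and 1 biogenesis and 5 quality control genes were higher. Members called relative to the family were the least stable count: 7 lower and 3 higher with no filter, 3 and 1 with no variance trend, and, leaving out 1 library at a time, 3 to 13 lower and 2 to 8 higher. The difference in large to small subunit ratio turned to 0.0163 without the most abundant member of each subunit and to 0.0251 with the rows outside the rule, an alternative chosen after seeing the data, and to 0.00463 without ETA sheet replicate 2 and 0.000895 without epidermal sheet replicate 2. Same-numbered libraries did not deviate together from their group means over the genes tested (correlations -0.0445 to 0.0194). These correlations cannot show whether such libraries shared an animal or a batch. A replicate block called 9 members lower and 4 higher relative to the family and kept all 76 members lower as deposited. The cause of these changes was not tested. TPM keeps no depth, so the counting error of low members such as Rps27 is unknown.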
